A study of Homo sapiens with 4 samples.

Results

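The genes described here encode the enzymes of central carbon metabolism: glycolysis, the pentose phosphate pathway, the pyruvate dehydrogenase complex and the tricarboxylic acid (TCA) cycle. The list held 45 genes, each found in the files by its Entrez Gene identifier, and all 45 had an RPKM of at least 1 in at least 1 of the 4 libraries, out of 14626 genes that met this minimum and 19801 genes in each file. The genes were LNCaP transcripts measured by RNA-seq. LNCaP is an established, androgen-sensitive human prostate cancer line. Cells were transfected for 24 h with empty vector or with the plasmid labelled AR1-651, and were then left untreated or given AIL (ailanthone, a plant quassinoid) for 12 h. The 4 conditions, all in the same parental line, were therefore empty vector without AIL, empty vector with AIL, AR1-651 without AIL and AR1-651 with AIL. Each had 1 library, so differences could not be set against a spread between replicates and no test was run. Values in a row of 4 follow that order of conditions throughout.

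Glycolysis splits glucose into pyruvate, with an upper part that uses ATP to prepare the sugar and a lower part that returns ATP and NADH. The pentose phosphate pathway branches off at glucose-6-phosphate and supplies NADPH and ribose. Pyruvate dehydrogenase turns pyruvate into acetyl-CoA, which the TCA cycle oxidises in the mitochondrion. Prostate epithelium is known for an unusual use of this cycle, in which citrate is secreted rather than oxidised, and prostate cancer cells are known to oxidise it again.

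The libraries differed in ways that touch the enzymes. RPKM relates a gene's reads to its exon length and to the library's mapped total, and steps between low RPKM values gave an estimated depth of 4.77 to 5.62 M reads per library. Ribosomal protein genes took 31.7% of the summed RPKM in the library labelled AR1-651 and 21.2% to 24.5% in the others. The androgen target KLK3 stood at 286.61, 302.56, 1442.16 and 581.52 RPKM, highest under the label AR1-651. Comparisons are given between libraries as labelled. All 9 luminal prostate markers passed the RPKM minimum, while of 11 markers of other cell types 2 did (COL1A1 and CD68), with a summed level of 11.3 to 16.7 RPKM.

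The enzymes were among the more abundant transcripts of these cells. Their median level was 68.4, 72.5, 71.6 and 64.5 RPKM, against 9.26, 9.27, 6.83 and 8.47 RPKM for all genes that passed the minimum. Together they held 1.34%, 1.17%, 1.08% and 0.999% of the summed RPKM. By mean over the libraries, GAPDH came first at 1717 RPKM, followed by TPI1 at 518 RPKM, ALDOA at 499 RPKM, ENO1 at 471 RPKM and PKM at 319 RPKM, which are all glycolytic. TALDO1 of the pentose phosphate pathway followed at 238 RPKM. The group of TCA enzymes, which here includes cytosolic relatives, was led by the cytosolic IDH1 at 153 RPKM, with the mitochondrial MDH2 next at 147 RPKM. At the other end stood RPE at 9.29 RPKM, ENO2 at 8.18 RPKM and HK2 at 2.82 RPKM. Neighbours in this order were often closer than the spread of a gene over the libraries: ALDOA ranged 2.48-fold between its highest and lowest library, more than its distance from TPI1 and ENO1.

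**Figure D1:**
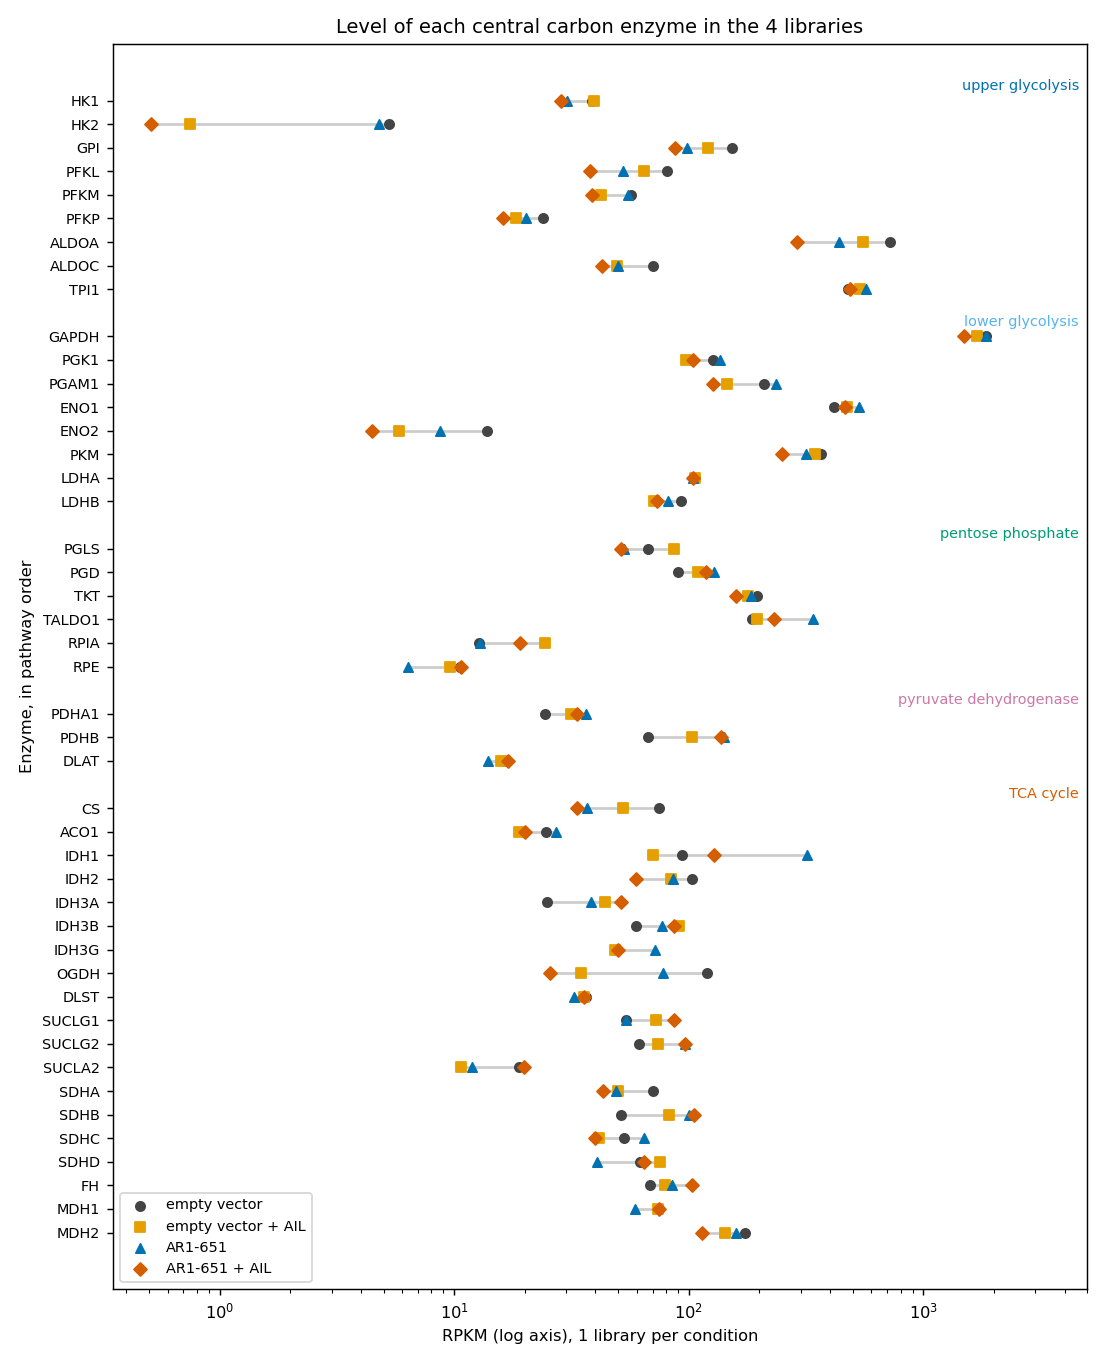
RPKM (log axis) of each of the 45 enzymes in pathway order, with 1 symbol per library and a grey line from the lowest to the highest library. HK2 spans the widest range, 10.3-fold, followed by OGDH at 4.64-fold and IDH1 at 4.53-fold, while LDHA stays within 1.02-fold.

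Changes were taken as differences of log2(RPKM + 1), on which ratios of low RPKM values come out too small, and a gene was counted when it differed at least 2-fold on this scale. Between the library labelled AR1-651 and empty vector, 2 of the 45 enzymes were higher by this measure (IDH1 and PDHB) and none was lower, where 4.01% of all genes were higher and 11.6% lower. With AIL in empty vector cells, 3 enzymes were lower (HK2, ENO2 and OGDH) and none higher, against 9.03% and 9.53% of all genes. With AIL in the cells labelled AR1-651, 3 were lower (HK2, IDH1 and OGDH) and none higher, against 5.74% and 14.9% of all genes. Between the libraries with AIL, no enzyme differed 2-fold, where 1.46% of all genes were higher and 3.53% lower in the library labelled AR1-651. The enzymes counted as higher under the AR1-651 label were 4.44% of the list, and those counted as lower with AIL were 6.67% in either background, shares near those of all genes. That no enzyme was 2-fold higher with AIL, where 9.53% and 14.9% of all genes were, was not tested. In bulk RNA, a different share of responding cells and a different level per cell cannot be told apart.

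The median change of the enzymes was below 0 in each comparison, and in 1 of them that of all genes was above 0. It was -0.09 for the library labelled AR1-651 against empty vector (all genes, -0.30), -0.12 for AIL with empty vector (all genes, -0.02), -0.18 for AIL in the cells labelled AR1-651 (all genes, 0.13) and -0.06 between the libraries with AIL (all genes, -0.03). Since so few enzymes passed 2-fold, a limit of 1.5-fold was also counted. At that limit 6 enzymes were higher and 9 lower in the library labelled AR1-651 (10.7% and 32.3% of all genes), and 5 higher and 4 lower with AIL in empty vector cells (20.9% and 22.1%). In the cells labelled AR1-651, 4 were higher and 7 lower with AIL (28.6% and 14.7% of all genes), and between the libraries with AIL 2 were higher and 4 lower (7.73% and 15.5%).

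**Figure D2:**
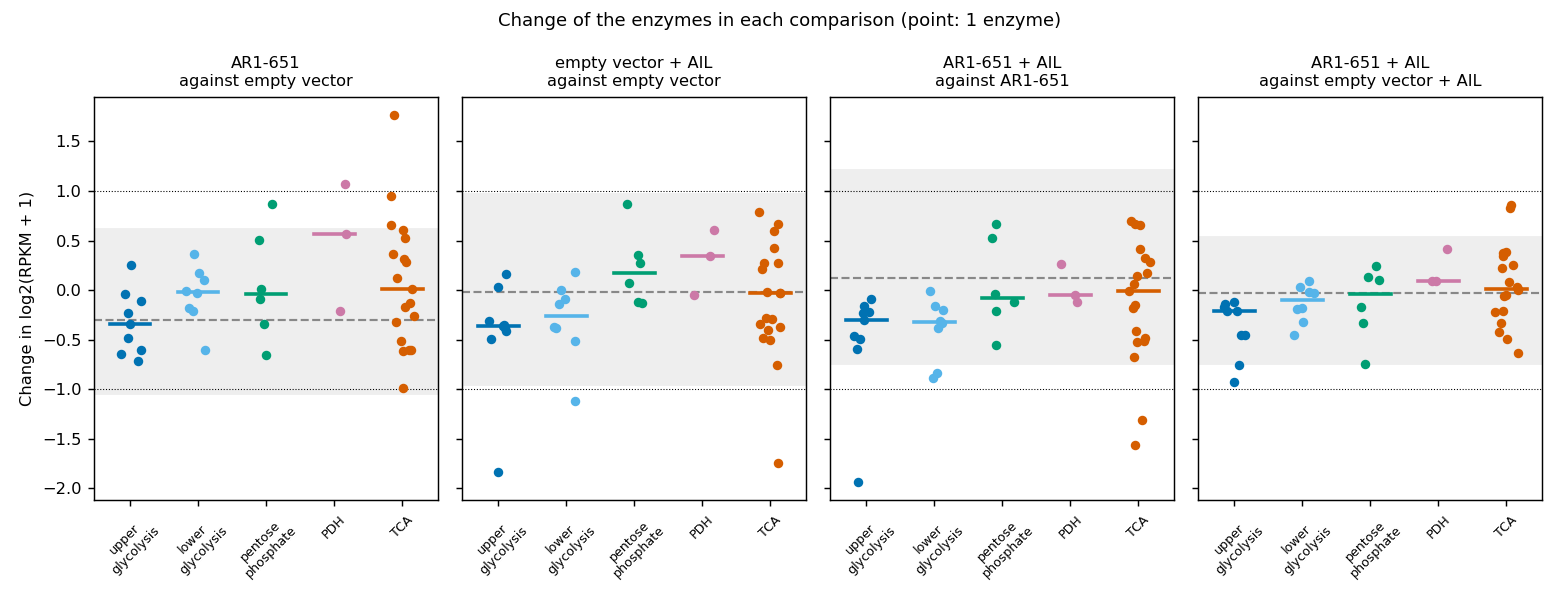
Change of each enzyme (points) in log2(RPKM + 1) in the 4 comparisons, grouped by pathway section (PDH, pyruvate dehydrogenase; TCA, tricarboxylic acid cycle), with the section's median as a coloured bar, the median of all genes as a dashed line, the 10th to 90th percentile of all genes in grey and 2-fold as dotted lines. Most enzymes lie inside the grey band, with HK2, OGDH and ENO2 below it in both AIL comparisons and IDH1, PDHB, SDHB, TALDO1 and SUCLG2 above it in the first panel.

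The first step of glycolysis showed the widest change. HK2, the inducible hexokinase that phosphorylates glucose at the outer mitochondrial membrane, had 5.25, 0.75, 4.78 and 0.51 RPKM. Both libraries without AIL were high and both with AIL were low, and the AR1-651 label made little difference in either. The ratio of RPKM was 7.00-fold lower with AIL in empty vector cells and 9.37-fold lower in the cells labelled AR1-651, which on the log2(RPKM + 1) scale were changes of -1.84 and -1.94. The lower value of each pair rested on few reads, an estimated 21 and 17 reads against 153 and 151, and the 95% exact Poisson intervals, which cover counting error only, were 0.464 to 1.15 RPKM against 4.45 to 6.15 RPKM and 0.297 to 0.817 RPKM against 4.05 to 5.61 RPKM. HK1, the hexokinase found in most cells, was at 38.60, 39.39, 30.30 and 28.46 RPKM and carried most of the hexokinase message in every library. The HK2 share of HK1 + HK2 was 12.0%, 1.87%, 13.6% and 1.76%.

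The remaining enzymes of upper glycolysis were lower in most comparisons, by less than 2-fold. Of the 9 genes of this section, 8 were below 0 in the library labelled AR1-651 against empty vector (median -0.34, against -0.30 for all genes, and 0.08 once the dependence on transcript length and GC content was removed), and 7 were below 0 with AIL in empty vector cells (median -0.36). All 9 were below 0 with AIL in the cells labelled AR1-651 (median -0.30) and between the libraries with AIL (median -0.21, and -0.0012 after removal of the trend). Of all genes, 32.2%, 48.3%, 56.2% and 46.9% were above 0 in these comparisons, in that order. ALDOA, the main aldolase, which splits fructose-1,6-bisphosphate, had 717.39, 550.78, 437.54 and 289.47 RPKM, lowest in the library with both the AR1-651 label and AIL. Between the libraries with AIL it had the lowest change of the section, at -0.93. ALDOC, the brain-type aldolase, had 70.01, 49.43, 49.94 and 42.58 RPKM and made up 8.24% to 12.8% of the aldolase message.

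GPI, which isomerises glucose-6-phosphate to fructose-6-phosphate, followed the same order of libraries with 153.17, 120.21, 97.80 and 87.57 RPKM. Phosphofructokinase, the committed step of glycolysis, is encoded by 3 genes. PFKL (liver type) had 80.40, 64.37, 52.49 and 37.84 RPKM, PFKM (muscle type) 56.49, 42.23, 54.85 and 38.69 RPKM, and PFKP (platelet type) 23.85, 18.33, 20.13 and 16.16 RPKM. PFKL supplied 50.0% and 51.5% of the phosphofructokinase message in the empty vector libraries and 41.2% and 40.8% in those labelled AR1-651, while the share of PFKM was 35.1% and 33.8% against 43.0% and 41.7%. These shares were not adjusted for the trend. Its removal took the PFKL changes under the AR1-651 label from -0.61 to -0.08 without AIL and from -0.75 to -0.19 with it. Those of PFKM went from -0.04 to 0.24 and from -0.12 to 0.06. All 3 phosphofructokinase genes were lower with AIL in both backgrounds, by -0.30 to -0.49. TPI1, which interconverts the triose phosphates, had 478.98, 537.25, 570.85 and 485.88 RPKM. It was the only gene of the section higher in the library labelled AR1-651 than with empty vector (0.25). With AIL in empty vector cells it was also above 0 (0.17), as was HK1 (0.03).

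In lower glycolysis, ENO2 and PGAM1 moved most. ENO2, the neuronal type of enolase, had 13.75, 5.81, 8.71 and 4.44 RPKM, with both AIL libraries below both libraries without AIL. Its changes with AIL were -1.11 with empty vector and -0.84 in the cells labelled AR1-651, and in the latter it stayed short of 2-fold. The counting intervals did not overlap within either pair (11.7 to 16.0 RPKM against 4.50 to 7.38 RPKM, and 7.20 to 10.4 RPKM against 3.39 to 5.72 RPKM). ENO1, the enolase of most tissues, stood at 413.92, 471.31, 533.51 and 464.72 RPKM, and ENO2 made up 3.22%, 1.22%, 1.61% and 0.946% of the enolase message. PGAM1, the mutase that moves the phosphate of 3-phosphoglycerate, had 208.65, 145.75, 235.13 and 127.20 RPKM, lower with AIL in both backgrounds (-0.51 and -0.88).

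The other lower glycolytic genes stayed within narrower limits in RPKM. GAPDH, which makes the first NADH of the pathway and is a common reference gene, had 1854.41, 1684.68, 1840.16 and 1487.12 RPKM and thus varied 1.25-fold. PGK1, which makes the first ATP, was at 127.26 and 136.22 RPKM without AIL and at 97.14 and 103.94 RPKM with it, for a change of -0.39 in either background. Once the trend was removed, its changes were -0.32 with empty vector and -0.81 in the cells labelled AR1-651. PKM, the pyruvate kinase gene, had 365.29, 344.11, 314.98 and 250.67 RPKM. LDHA, which reduces pyruvate to lactate, was the steadiest enzyme in RPKM at 106.50, 106.23, 104.54 and 104.25 RPKM, while LDHB, the subunit known to favour the reverse reaction, had 92.50, 71.14, 81.53 and 72.83 RPKM. After removal of the trend the LDHA changes with AIL were -0.22 with empty vector and -0.47 in the cells labelled AR1-651. The section's median change was -0.02 in the library labelled AR1-651 (0.05 after removal of the trend), -0.26 with AIL in empty vector cells and -0.32 with AIL in the cells labelled AR1-651, where all 8 genes were below 0. In that last comparison 56.2% of all genes were above 0. GAPDH has 62 named pseudogenes in GENCODE release 29, PGAM1 13 and LDHA 6, and reads shared with such copies make their values uncertain. Of the 45 enzymes, 21 have a named pseudogene, and the same limit holds for each of them.

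The pentose phosphate genes did not move together. TALDO1, the transaldolase of the non-oxidative branch, had 185.32, 195.28, 339.71 and 231.57 RPKM and was highest in the library labelled AR1-651, 0.87 above empty vector. PGD, which makes NADPH in the oxidative branch, was lowest with empty vector in a series of 90.02, 109.37, 127.94 and 117.80 RPKM. RPIA, the isomerase that yields ribose-5-phosphate, was about level without AIL (12.79 and 12.94 RPKM) and higher with it (24.26 and 19.05 RPKM), by 0.87 with empty vector and 0.52 in the cells labelled AR1-651. Its sister epimerase RPE had 10.54, 9.63, 6.33 and 10.65 RPKM, with the library labelled AR1-651 apart from the other three. Its change with AIL in the cells so labelled was 0.67, and -0.10 after removal of the trend. Since 6 named pseudogenes exist for RPE, its value is uncertain. TKT (transketolase) at 195.43, 178.84, 183.99 and 158.32 RPKM was nearly level, and PGLS, the lactonase of the oxidative branch, at 67.19, 86.44, 52.74 and 51.28 RPKM, was lower in both libraries labelled AR1-651.

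The E1 subunits of pyruvate dehydrogenase were higher under the AR1-651 label, while the other subunits had no common order. PDHB, the beta subunit of E1, had 67.09, 102.90, 141.81 and 137.17 RPKM, so that empty vector alone stood lowest and the libraries labelled AR1-651 highest. Its change against empty vector was 1.07 in the library labelled AR1-651 and 0.61 with AIL, and the former became 0.93 with the length and GC trend taken out. PDHA1, the alpha subunit, followed in the same order at a lower level with 24.45, 31.35, 36.57 and 33.48 RPKM, for changes of 0.56 and 0.35. The PDHB to PDHA1 ratio was 2.74, 3.28, 3.88 and 4.10. DLAT, the E2 acetyltransferase core, did not share this order, at 16.35, 15.82, 13.95 and 16.99 RPKM. From the wider list of pathway genes, and chosen after their values were seen, the E3-binding protein PDHX had 28.27, 31.60, 33.21 and 42.12 RPKM. The E3 subunit DLD was lowest in the library labelled AR1-651, with 43.34, 25.70, 21.00 and 36.33 RPKM (change of -1.01 against empty vector).

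Among the TCA enzymes and their cytosolic relatives, IDH1 had the largest difference between vector and AR1-651 labels. IDH1 is the cytosolic and peroxisomal isocitrate dehydrogenase, which makes NADPH outside the mitochondrion. It had 93.11, 70.38, 319.14 and 128.53 RPKM, and the library labelled AR1-651 stood far above the other three. Against empty vector the ratio was 3.43-fold (change of 1.77, and 1.85 after removal of the trend). In the presence of AIL it was 1.83-fold (change of 0.86, and 0.61 after removal of the trend). With AIL the level was 2.48-fold lower in the cells labelled AR1-651 (-1.31) and 1.32-fold lower with empty vector (-0.40). KLK3 was also highest in that library. IDH2, the mitochondrial NADP-dependent counterpart, went from 103.27 to 83.97, 85.91 and 59.50 RPKM, so the IDH1 to IDH2 ratio was 0.902, 0.838, 3.71 and 2.16.

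OGDH had the lowest change with AIL of the TCA genes. It encodes the E1 subunit of the 2-oxoglutarate dehydrogenase complex, one of the controlled steps of the cycle. Its level was 118.96, 34.80, 77.85 and 25.64 RPKM, with both AIL libraries far below both others. The ratio was 3.42-fold lower with AIL in empty vector cells (-1.74) and 3.04-fold lower in the cells labelled AR1-651 (-1.57), and these changes were -1.60 and -1.49 after removal of the trend. DLST, the E2 subunit of the same complex, was nearly level at 36.57, 35.75, 32.40 and 35.84 RPKM. The OGDH to DLST ratio was accordingly 3.25, 0.973, 2.40 and 0.715.

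**Figure D3:**
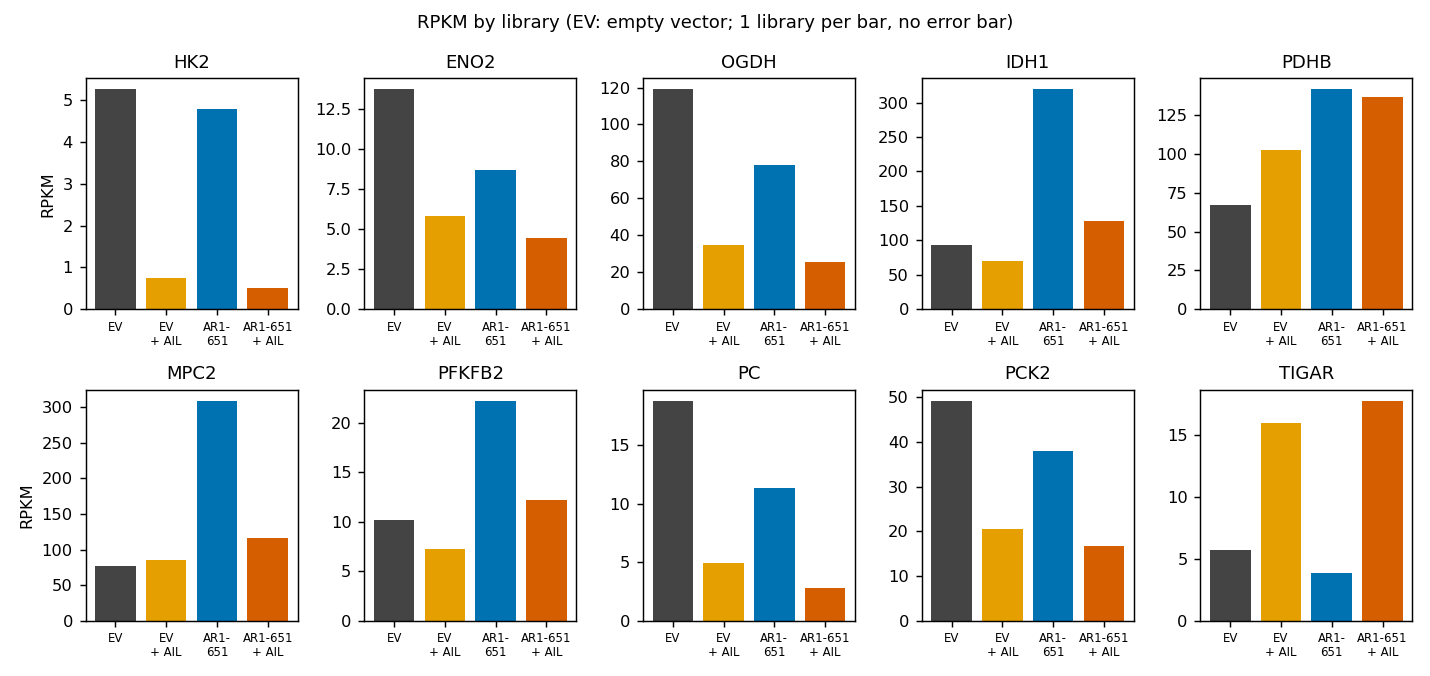
RPKM of the 5 enzymes that differed at least 2-fold in a comparison (top) and of 5 other genes of the pathways (bottom), as bars from 0 with 1 library per bar. HK2, ENO2, OGDH, PC and PCK2 are lower in both libraries with AIL, TIGAR is higher in both, and IDH1, MPC2 and PFKFB2 are highest in the library labelled AR1-651.

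The remaining TCA genes differed by less than 2-fold on the log2(RPKM + 1) scale in each comparison. CS, citrate synthase, which joins acetyl-CoA to oxaloacetate, came nearest, with 74.42, 52.39, 36.95 and 33.31 RPKM and a change of -0.99 in the library labelled AR1-651 against empty vector (-0.77 after removal of the trend). The plain ratio of its RPKM values was 2.01-fold lower, so its place on either side of 2-fold depends on the scale. SDHB, the iron-sulphur subunit of succinate dehydrogenase, was lowest with empty vector, with 51.38, 82.09, 100.41 and 104.81 RPKM, and its change under the AR1-651 label was 0.95. SDHA, the flavoprotein subunit of that enzyme, went the other way with 70.12, 49.74, 48.81 and 42.96 RPKM. The SDHB to SDHA ratio thus went from 0.733 with empty vector to 1.65, 2.06 and 2.44. SDHA has 3 named pseudogenes and SDHB has none, and reads shared with such copies make the ratio uncertain. The membrane anchors had no common order, with SDHC at 52.89, 41.49, 64.46 and 40.00 RPKM and SDHD at 62.05, 75.23, 40.42 and 64.53 RPKM.

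Of the NAD-dependent isocitrate dehydrogenase subunits, the catalytic IDH3A was lowest with empty vector (24.95, 43.83, 38.45 and 51.41 RPKM), and IDH3B shared that lowest library (59.44, 90.47, 76.85 and 86.65 RPKM). IDH3G was apart from them, highest in the library labelled AR1-651 at 71.63 RPKM and between 48.54 and 49.79 RPKM in the other three. Its share of the summed subunits was 37.0% and 38.3% without AIL and 26.5% in both libraries with AIL. In empty vector cells IDH3G itself was about level with AIL (49.48 and 48.54 RPKM), while IDH3A and IDH3B were higher with it. Succinyl-CoA synthetase has a common alpha subunit, SUCLG1, and a beta subunit that sets the nucleotide, SUCLG2 for GTP and SUCLA2 for ATP. SUCLG1 was higher with AIL (53.73 and 54.18 RPKM without, 72.53 and 86.61 RPKM with). SUCLG2 was higher in the libraries labelled AR1-651 (61.09, 73.89, 96.70 and 95.99 RPKM). SUCLA2 was lower with AIL in empty vector cells (18.83 and 10.73 RPKM, a change of -0.76) and higher with it in the cells labelled AR1-651 (11.92 and 19.89 RPKM, a change of 0.69), where the latter became -0.02 after removal of the trend. ACO1, the cytosolic aconitase, had 18.89 to 27.08 RPKM and FH, fumarase, 68.35 to 103.60 RPKM. MDH1 and MDH2, the cytosolic and mitochondrial malate dehydrogenases, had 59.21 to 74.40 RPKM and 113.36 to 173.89 RPKM.

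The AIL comparisons in empty vector cells and in the cells labelled AR1-651 share no library and could be set side by side. Of the 45 enzymes, 24 were lower with AIL in both (53.3%, against 32.2% of all genes) and 7 were higher in both (15.6%, against 38.0%), so 68.9% had the same sign, against 70.2% of all genes. These shares were not tested. Across the 45 enzymes the changes had a Pearson r of 0.71 and a Spearman rho of 0.62 (all genes, 0.56 and 0.59), values across genes that are not independent. The genes higher in both were RPIA, IDH3A, IDH3B, SUCLG1, SDHB, SDHD and FH, but after removal of the trend SDHB (0.49 and -0.03) and FH (-0.03 and -0.15) no longer were. IDH3A (0.80 and 0.01) and SDHD (0.04 and 0.35) were then about level in 1 background, and PGLS was higher in both (0.32 and 0.21). For the AR1-651 label without and with AIL, which also share no library, 13 enzymes were higher in both (28.9%, against 21.7% of all genes) and 20 lower in both (44.4%, against 41.3%), or 73.3% with the same sign against 63.1% of all genes. Farthest from 0 were IDH1 among those higher in both, and ALDOA (-0.71 and -0.93) and CS (-0.99 and -0.64) among those lower in both.

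**Figure D4:**
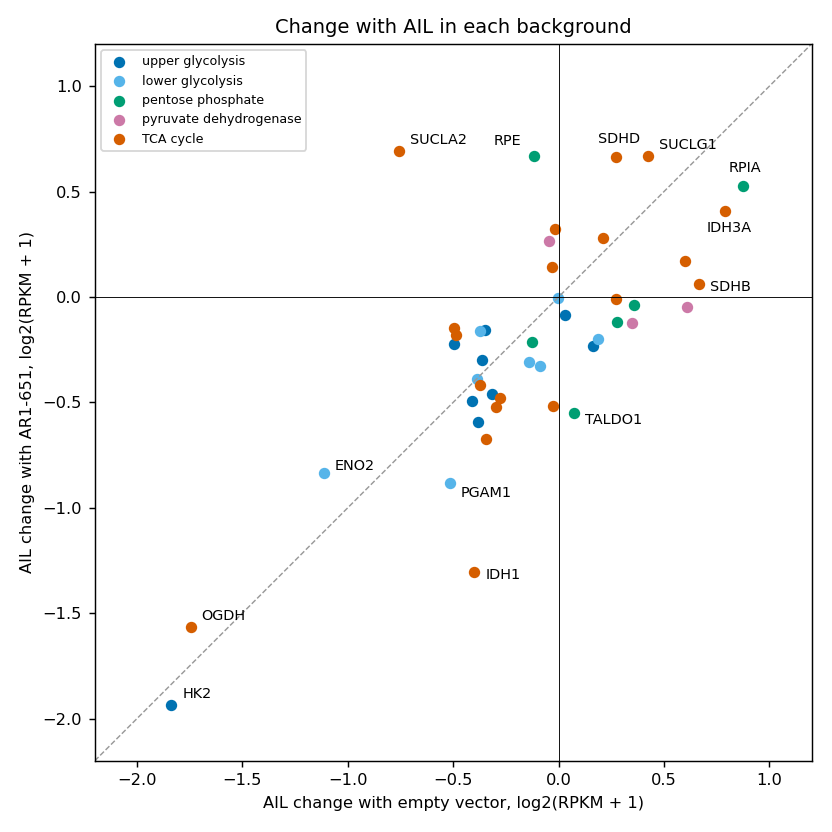
Change with AIL in empty vector cells (horizontal) against change with AIL in the cells labelled AR1-651 (vertical), both in log2(RPKM + 1), with 1 point per enzyme coloured by pathway section and a dashed line where both are equal. HK2, OGDH and ENO2 lie at the lower left near the line, IDH1 lies below it, and SUCLA2 and RPE are above 0 on the vertical axis alone (-0.02 and -0.10 there once the length and GC trend was taken out).

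Transcript properties moved with the changes. Across 14005 genes with a known length and GC content, the change in the library labelled AR1-651 against empty vector had a Spearman rho of -0.41 with length (-0.20 across the 45 enzymes). The change with AIL in the cells labelled AR1-651 had a rho of -0.41 with GC content (-0.51 across the enzymes), and that between the libraries with AIL a rho of -0.61 (-0.66). The enzymes had a median transcript length of 2063 nt and 51.9% GC, against 2561 nt and 49.6% for all genes. With these trends removed, HK2 and OGDH still differed over 2-fold with AIL in both backgrounds, ENO2 with AIL in empty vector cells (-1.12) and IDH1 under the AR1-651 label and with AIL in the cells so labelled (-1.83). PDHB under the AR1-651 label fell from 1.07 to 0.93, just under 2-fold. The part of length and GC content in the other changes was not tested.

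Promoters were read for the enzymes that differed 2-fold, since these are the members that moved, and 43 of the 45 enzymes had an entry in the RefSeq promoter table (GRCh38.p14), all but OGDH and SDHC. Shown 5′ to 3′ on the gene's strand is the part of that table's window upstream of the GENCODE start of the transcript listed in the files, in lower case with matches to ACGTG on either strand in capitals. ACGTG is the core shared by hypoxia response elements and some E-boxes.
HK2, chr2:74833877-74833980 (+): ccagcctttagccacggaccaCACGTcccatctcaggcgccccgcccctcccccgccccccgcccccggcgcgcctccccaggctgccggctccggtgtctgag
ENO2, chr12:6914330-6914449 (+): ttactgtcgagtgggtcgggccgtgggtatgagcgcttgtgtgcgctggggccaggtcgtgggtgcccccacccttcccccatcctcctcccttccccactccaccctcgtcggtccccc
IDH1, chr2:208255134-208255321 (-): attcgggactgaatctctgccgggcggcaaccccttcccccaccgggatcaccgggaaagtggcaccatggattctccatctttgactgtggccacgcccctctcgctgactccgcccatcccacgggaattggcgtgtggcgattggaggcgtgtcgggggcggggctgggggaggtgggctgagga
PDHB, chr3:58433853-58434082 (-): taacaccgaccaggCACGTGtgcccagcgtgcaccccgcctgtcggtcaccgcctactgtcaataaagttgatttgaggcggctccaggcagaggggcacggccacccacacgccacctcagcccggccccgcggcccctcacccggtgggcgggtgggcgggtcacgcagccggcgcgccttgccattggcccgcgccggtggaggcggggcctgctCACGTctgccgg

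The HK2 piece held 1 match to ACGTG, and 7.17% of the 35116 windows in the table cut to the same length held any. The PDHB piece held 3, counting both strands of its palindromic CACGTG, and 17.0% of windows cut to that length held any. The GC box GGGCGG, known as a binding sequence of SP1, was found 3 times in HK2, 3 times in IDH1, 2 times in PDHB and not in ENO2. These counts hold for the pieces shown: the whole 250-base window of ENO2 held 2 GC boxes and 1 ACGTG, and each of the 2 windows of HK2 held both motifs. Over windows of 250 bases, several per gene in some cases, 19 of 65 enzyme windows held ACGTG (29.2%; 18.5% of all windows) and 39 held GGGCGG (60.0%; 42.6%). These are matches of letters and do not show binding.

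Further genes around the same pathways were taken from a list of 76 transporters, other isozymes, regulators and side branches, of which 69 were in the files and 52 passed the RPKM minimum. In the library labelled AR1-651 4 of the 52 were at least 2-fold higher and 5 lower than with empty vector (4.01% and 11.6% of all genes). With AIL 3 were higher and 9 lower in empty vector cells (9.53% and 9.03% of all genes), and 2 were higher and 5 lower in the cells labelled AR1-651 (14.9% and 5.74%). Between the libraries with AIL, 2 were higher and 2 lower (1.46% and 3.53% of all genes). The largest difference under the AR1-651 label belonged to MPC2, a subunit of the mitochondrial pyruvate carrier, with 77.33, 84.60, 309.40 and 116.01 RPKM (change of 1.99). Like IDH1, it was high in the library labelled AR1-651 alone and lower there with AIL (-1.41). Its partner MPC1 had 38.10, 42.75, 51.97 and 43.59 RPKM, and this gene was chosen after its values were seen.

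SDHAF4, a succinate dehydrogenase assembly factor, had 11.44, 28.71, 35.16 and 34.43 RPKM, lowest with empty vector as SDHB was (changes of 1.54 under the AR1-651 label and 1.26 with AIL). SDHAF2, which helps attach FAD to the flavoprotein subunit, was higher with AIL (20.13 and 30.12 RPKM without, 47.58 and 50.01 RPKM with). RBKS, the ribokinase, was lowest with empty vector at 10.46 RPKM and between 18.40 and 24.44 RPKM in the other three. PFKFB2, which sets the level of the phosphofructokinase activator fructose-2,6-bisphosphate, was highest in the library labelled AR1-651 (10.20, 7.21, 22.22 and 12.18 RPKM) and was named after its values were seen. The related PFKFB3 was lower in the libraries labelled AR1-651 (3.92, 4.85, 1.95 and 1.90 RPKM).

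TIGAR, a phosphatase known to divert sugar into the pentose phosphate pathway, was higher with AIL in both backgrounds, with 5.68, 15.97, 3.82 and 17.80 RPKM (changes of 1.35 and 1.96). PC, pyruvate carboxylase, which refills oxaloacetate, was lower with AIL in both, with 18.81, 4.96, 11.32 and 2.82 RPKM (-1.73 and -1.69). LDHD, the D-lactate dehydrogenase, was also lower with AIL in both, with 86.34, 35.02, 64.83 and 26.70 RPKM. PCK2, the mitochondrial phosphoenolpyruvate carboxykinase, shared this order (49.24, 20.44, 38.10 and 16.80 RPKM) and was named after its values were seen. Of the 6 genes of gluconeogenesis and anaplerosis that passed the minimum, 3 were at least 2-fold lower with AIL in empty vector cells (9.03% of all genes) and 2 in the cells labelled AR1-651 (5.74%).

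H6PD, the hexose-6-phosphate dehydrogenase of the endoplasmic reticulum, was highest with empty vector (17.20, 6.20, 7.27 and 3.40 RPKM), as was PDPR, a regulator of pyruvate dehydrogenase phosphatase (5.72, 1.93, 2.17 and 1.30 RPKM). HIF1A, the hypoxia-inducible regulator of many glycolytic genes, was low in the library labelled AR1-651 alone (17.10, 13.00, 6.37 and 15.32 RPKM). Of the glucose transporters, SLC2A12 was higher in the libraries labelled AR1-651 (11.36, 6.60, 20.82 and 16.03 RPKM), and SLC2A8 was highest with AIL and empty vector (13.17, 22.30, 11.58 and 8.20 RPKM). GAPDHS, the sperm type of GAPDH, was near the RPKM minimum throughout and was listed at 0 in empty vector + AIL (1.86, 0, 0.85 and 1.06 RPKM).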

How the data were processed

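The authors prepared stranded total RNA libraries from LNCaP cells with a ribosomal RNA depletion kit (the labels also mention oligo(dT) enrichment), sequenced them on a HiSeq2000 and deposited RPKM values per gene, rounded to 2 decimals. The submitters' processing notes name BWA 0.7.10-r789 and hg19, and the counting tool is not given in the sources used here. RPKM depends on the makeup of a library: where some genes take more of the reads, the others read lower.

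From these values log2(RPKM + 1) was computed for the 14626 of 19801 genes that reached an RPKM of 1 in any library. Symbols came from RefSeq (19703 genes matched), and length, GC content and pseudogene names from GENCODE release 29, which gave length and GC content for 95.8% of these genes. Depth was estimated from the step that best turned RPKM of short, single-transcript genes (at most 1500 nt) into whole reads. Only 42.2% to 48.1% of the low values then lay within 0.1 of a whole number, so the estimate is rough. The exact Poisson intervals given for HK2 and ENO2 were computed at these depths, cover counting error only and had a level of 95%.

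The enzymes named were the 5 highest and 5 lowest changes in each of the 4 comparisons, all past 2-fold, the isozymes of a step and GAPDH, with the rest given in pathway order. Further genes were named at most 3 per direction and comparison, with exceptions stated. The members and lists were chosen with earlier results of these data known. Alternatives were a pseudocount of 0.1, median-ratio scaling, a common RPKM sum for every library, no filter, RPKM of at least 5, a 1.5-fold limit, and subtraction of a polynomial of degree 3 in the ranks of length and GC content. Some genes are not reported here. The scripts were tested on simulated data. Python 3.11.15, NumPy 2.4.6, SciPy 1.17.1, pandas 2.3.3 and matplotlib 3.10.9 were used.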

Additional observations from a re-analysis of the deposited data

Results flagged for a closer look

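For 14 of the 45 enzymes the change with AIL had opposite signs in empty vector cells and in the cells labelled AR1-651 (31.1%, against 27.8% of all genes). With 1 library per condition the difference between the backgrounds was not tested. The widest belonged to SUCLA2, whose AIL change was 1.45 higher in the cells labelled AR1-651 on the log2(RPKM + 1) scale, followed by RPE at 0.79. With the length and GC trend taken out, the change with AIL in the cells labelled AR1-651 was -0.02 for SUCLA2 and -0.10 for RPE, so neither was then of opposite sign. Smaller positive differences were found for MDH1 (0.34), DLAT (0.31) and DLST (0.17). After removal of the trend MDH1 (-0.26 and -0.02) and DLAT (-0.0047 and -0.16) were also lower with AIL in both backgrounds. The AIL change was less in the cells labelled AR1-651 for PDHB (-0.66), TALDO1 (-0.63), PDHA1 (-0.47), PGLS (-0.40), TPI1 (-0.40), PGD (-0.40), ENO1 (-0.39), SUCLG2 (-0.28) and HK1 (-0.12). Of these, PGLS was higher with AIL in both backgrounds after removal of the trend (0.32 and 0.21). Of the further genes named, HIF1A showed a difference of 1.52, MPC2 one of -1.54, SDHAF4 one of -1.29, SLC2A8 one of -1.17, RBKS one of -0.85 and PFKFB3 one of -0.27. With the trend taken out, the AIL changes of HIF1A were -0.32 with empty vector and 0.35 in the cells labelled AR1-651. Those of MPC2 (-0.08 and -1.95) and PFKFB3 (0.45 and 0.05) then had the same sign in both backgrounds.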

How the results depend on the processing

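Scaling decided part of the comparison between the library labelled AR1-651 and empty vector, where the median of all genes was -0.30 with RPKM as deposited, -0.09 with median-ratio scaling and -0.65 with a common sum per library. The shares of all genes at least 2-fold higher and lower went from 4.01% and 11.6% to 7.29% and 5.59% with median-ratio scaling and to 2.06% and 30.0% with a common sum. The enzymes' median went from -0.09 to 0.18 and -0.45, and to 0.084 with the length and GC trend taken out, but it stayed above the median of all genes under each. Enzymes at least 2-fold higher numbered 4 with median-ratio scaling (TALDO1, PDHB, IDH1 and SDHB), 1 with a common sum and 1 after removal of the trend (IDH1 in both, with 4.55% of all genes higher after removal), and those lower numbered 1 with a pseudocount of 0.1 (CS, with 20.8% of all genes lower) and 4 with a common sum (GPI, ALDOA, RPE and CS). With AIL in the cells labelled AR1-651, 5 enzymes were lower under median-ratio scaling (HK2, PGAM1, ENO2, IDH1 and OGDH). The shares of all genes higher and lower were then 10.8% and 8.62%, against 14.9% and 5.74% with RPKM as deposited. The enzymes' median was -0.40 with median-ratio scaling (all genes, -0.03) and 0.0080 with a common sum (all genes, 0.30), below that of all genes under each. Between the libraries with AIL, 1 enzyme was lower with a common sum (ALDOA, with 6.63% of all genes lower). At a limit of 1.5-fold the counts of enzymes higher and lower were 6 and 9, 5 and 4, 4 and 7, and 2 and 4 in the 4 comparisons. Of 240 recomputed values of named enzymes, 76 moved by more than 0.1. No change that had been 2-fold reversed its sign, and smaller changes were not counted as reversed. With AIL in the cells labelled AR1-651, removal of the trend took SUCLA2 from 0.69 to -0.02 and RPE from 0.67 to -0.10. The cause of these shifts was not tested beyond the construction of each scaling. No paired analysis was possible because each condition has 1 library, and no library could be left out. HK2 with AIL rests on an estimated 17 to 21 reads, and with a pseudocount of 0.1 its changes with AIL were -2.65 and -3.00.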
